A study of Mus musculus with 62 samples.

Results

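Lipid storage genes known as targets of the nuclear receptor PPARG were followed through mouse bladder tumours and bladder cancer cells treated with the PPARG agonist rosiglitazone and the MEK inhibitor trametinib. The set held 10 genes, Angptl4, Plin2, Plin4, Plin5, Hilpda, Pdk4, Fabp4, Fabp5, Cd36 and Lpl, each found by its symbol in every deposited table, out of 37164 gene symbols in all. Messenger RNA had been sequenced in 62 samples of 15 groups, 17 of tissue and 45 of cultured cells. All tumours were caused by BBN, a nitrosamine carcinogen of the mouse bladder, in animals whose genotype was labelled WT. Deposited names of all tumour comparisons carry the term 5MBBN, which the names do not spell out. Tumour-bearing mice had received rosiglitazone with trametinib for 5 days (4 samples) or 1 month (4 samples), or vehicle for the same times (3 samples each). Vehicle held hydroxypropyl methylcellulose, Tween 80 and DMSO in water. A further 3 samples came from untreated bladder without BBN, which the labels give the same cell type as the tumours, basal bladder cancer urothelial cells. The cultured cells were BBN963, 1 line of BBN-induced bladder cancer labelled C57bl/6 WT. In a first cell experiment rosiglitazone, trametinib, both together and the solvent DMSO were each given for 72 h to 5 samples. In a second cell experiment the combination (4 samples at 24 h, 4 at 72 h) and all-trans retinoic acid, ATRA (6 and 5 samples), were set against DMSO (3 and 3 samples). Doses were not in the labels, and they leave unsaid if each replicate was its own animal or culture, so p-values measure only the spread between these samples.

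PPARG is a ligand-activated transcription factor that binds DNA together with a retinoid X receptor such as RXRA, and it is best known for driving fat cell formation and, in the bladder, for supporting luminal urothelial differentiation. Many of its targets are shared with the related receptors PPARA and PPARD and act on the path of a fatty acid: release from lipoproteins (Lpl), uptake (Cd36), transport through the cytosol (Fabp4, Fabp5), storage in lipid droplets (Plin2, Plin4, Plin5, Hilpda) and the choice of fat over glucose as fuel (Pdk4). Hilpda and Angptl4 are also induced by hypoxia in many cells, and Fabp4, Cd36 and Lpl are expressed in fat cells, capillary endothelium or macrophages as well as in tumour cells.

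All 10 are protein-coding genes, and positions are given on build GRCm38. Plin4 (56100591 to 56109803) and Plin5 (56111601 to 56117596) are close neighbours on the minus strand of chromosome 17, which also carries Angptl4 (33773750 to 33781830). Fabp4 (10204088 to 10208576, minus strand) and Fabp5 (10012548 to 10016607, plus strand) lie near each other on chromosome 3. Hilpda (29272488 to 29275446) and Pdk4 (5483351 to 5496309) are on chromosome 6, Plin2 (86648386 to 86670060) on chromosome 4, Cd36 (17781690 to 17888801) on chromosome 5 and Lpl (68880491 to 68907448) on chromosome 8.

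Expression is given as the normalised value of the deposited tables, which is comparable between libraries of a table for 1 gene but not between genes, since it is not per transcript length. Changes are log2 changes of value + 1 with their standard errors (SE) from limma, and a gene was called at an adjusted p under 0.05 over all genes tested. Genes were tested where at least as many libraries as the smallest group holds had a value of 10 or more, which is the filter referred to throughout. Whether groups overlapped is stated gene by gene, and the share of all genes whose groups did not overlap is not given. Libraries held an estimated 43.0 to 78.9 M reads (M, mega) each in 1-month tumours and bladder without BBN. They held 17.8 to 23.1 M in 5-day combination tumours against 32.9 to 70.9 M in 5-day vehicle tumours. In the first cell experiment they held 29.8 to 48.1 M and in the second 4.643 to 29.45 M. Several libraries stood apart. Vehicle replicate 2 of the 1-month tumours had a summed fibroblast marker value of 78979.7, against 544545 and 487640 in the other vehicle tumours, and vehicle replicate 2 of the 5-day tumours had 40352, against 195646 and 181023. In the second cell experiment ATRA replicate 6 at 24 h and ATRA replicate 1 at 72 h resembled each other (r = 0.297 between their deviations across 14014 genes, which are not independent) more than their own groups (r of at most 0.160 and -0.137). By its library title ATRA replicate 1 at 72 h falls among the 24 h libraries, before all other 72 h libraries. The labels were kept as given, and whether its time or treatment label is right was not tested. The 10 marker genes of urothelium and basal epithelium summed to at least 10936 in every BBN963 library, and Upk1b and Upk3a of luminal urothelium were at 0 in DMSO libraries of the first cell experiment. Of the 8 macrophage markers 5 averaged under 10 in every group of that experiment, and C1qb and C1qc were at 0 throughout. The sum of the 8 was nevertheless 819.7 to 922 with the combination against 570.1 to 674 with DMSO, and 899.6 to 977 with trametinib against 614 to 728 with DMSO. In the second cell experiment at 72 h it was 215 to 225 with the combination, 66.7 to 141 with ATRA and 96.2 to 97.6 with DMSO. The part of these markers in the values of the lipid storage genes was not tested.

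Promoters of 6 of the 10 genes were matched in RefSeq on build GRCm38.p6, each running from 250 bases before to 50 bases after the transcription start. Plin4 and Pdk4 are shown as the pair called higher in treated 1-month tumours, and Plin2 and Hilpda as droplet genes called lower in the second cell experiment. Capitals mark, on either strand, the letters AGGTCA (the hexamer bound by nuclear receptors), ACGTG or GCGTG (the core of hypoxia response elements); TATAAA was searched too.
Plin4, chr17:56109733-56110032, minus strand: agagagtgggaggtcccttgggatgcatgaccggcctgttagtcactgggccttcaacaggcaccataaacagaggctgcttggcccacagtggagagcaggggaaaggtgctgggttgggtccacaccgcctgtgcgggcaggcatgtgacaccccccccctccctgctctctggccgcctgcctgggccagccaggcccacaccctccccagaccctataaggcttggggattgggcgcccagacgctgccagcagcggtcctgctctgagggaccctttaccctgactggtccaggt
Pdk4, chr6:5496229-5496528, minus strand: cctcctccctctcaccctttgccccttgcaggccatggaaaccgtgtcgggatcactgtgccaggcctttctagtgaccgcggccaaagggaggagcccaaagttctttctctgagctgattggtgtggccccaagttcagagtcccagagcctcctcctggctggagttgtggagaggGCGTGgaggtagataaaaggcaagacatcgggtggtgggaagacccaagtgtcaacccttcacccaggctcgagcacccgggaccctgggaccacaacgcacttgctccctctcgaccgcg
Plin2, chr4:86670010-86670309, minus strand: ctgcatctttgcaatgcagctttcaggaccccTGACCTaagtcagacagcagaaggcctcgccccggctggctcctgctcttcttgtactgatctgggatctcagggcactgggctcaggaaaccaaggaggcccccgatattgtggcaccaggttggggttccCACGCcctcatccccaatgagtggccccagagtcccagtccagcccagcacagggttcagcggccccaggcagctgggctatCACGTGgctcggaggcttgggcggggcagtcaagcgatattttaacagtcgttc
Hilpda, chr6:29272376-29272675, plus strand: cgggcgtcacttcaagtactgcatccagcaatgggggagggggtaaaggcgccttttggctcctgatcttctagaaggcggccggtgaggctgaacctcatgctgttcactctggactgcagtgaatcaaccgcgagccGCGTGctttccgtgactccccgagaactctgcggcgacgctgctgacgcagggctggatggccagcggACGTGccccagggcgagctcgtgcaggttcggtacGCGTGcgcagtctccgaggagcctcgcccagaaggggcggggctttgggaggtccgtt
Hilpda and Plin5 each had more than 1 promoter, so the 6 genes had 8 promoters, and the Hilpda promoter shown is the one holding ACGTG. The hexamer AGGTCA was found in 3 of the 6 genes, Plin2, Cd36 and Plin5. This was 4 of the 8 promoters, against 16.26% of 32851 promoters of the same length. In Plin2 it was read as TGACCT and began 218 bases before the start. A direct repeat of the hexamer with 1 base between the copies, the full element bound by PPARG with RXRA, stood in 0.0396% of all promoters and in none of the 6 genes. The core ACGTG was found in Plin2, where both of its readings overlap in CACGTG from 4 bases before the start, and in Hilpda, 43 bases before the start; 19.62% of all promoters held it. The variant GCGTG was found in 4 of 6 genes and in 32.39% of all promoters. TATAAA was in none of the 6 genes and in 13.62% of all promoters. These are matches of letters in short windows and not measurements of binding.

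**Figure D1:**
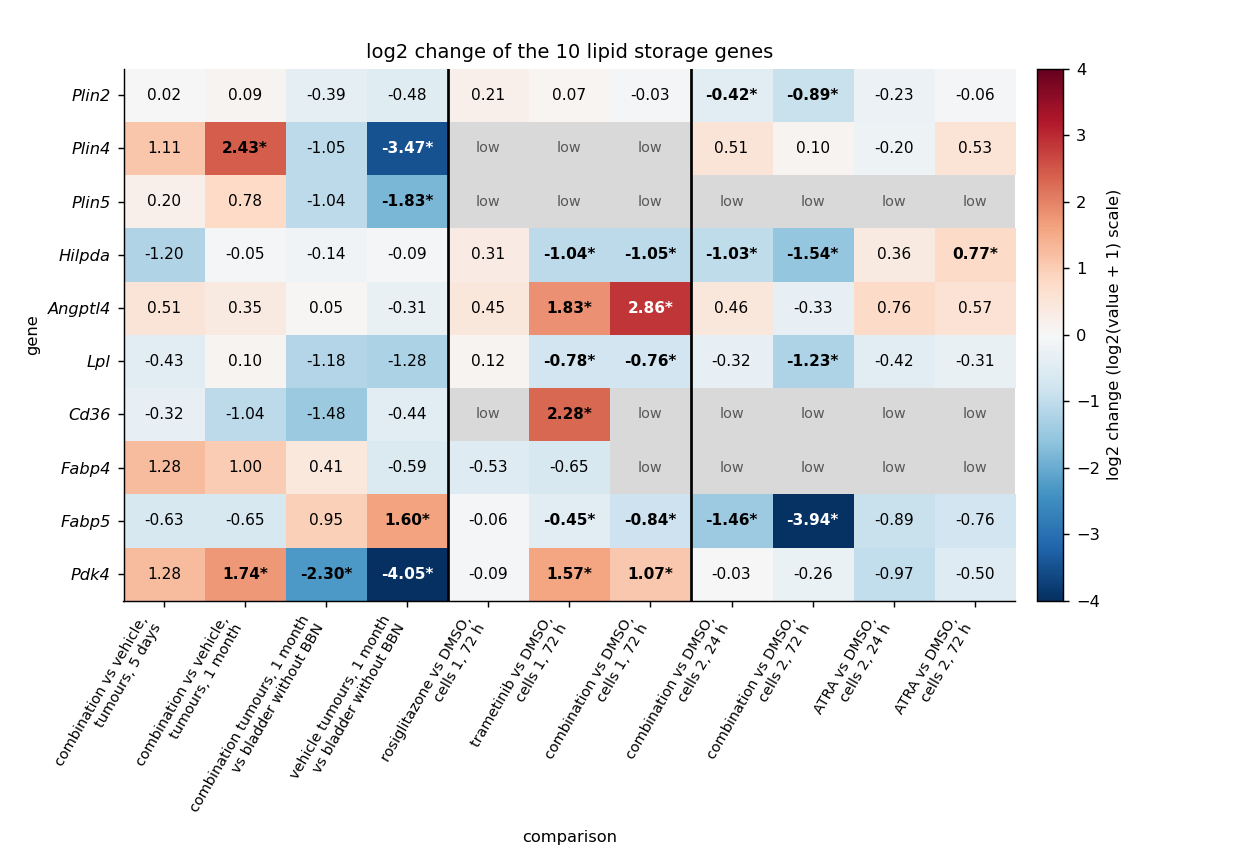
Log2 change of the 10 lipid storage genes (down the page) in 11 comparisons (across), from limma on log2(normalised value + 1); colour gives direction and size, an asterisk marks a gene called at an adjusted p under 0.05, and "low" marks a gene that did not pass the filter on low values. Pdk4 and Plin4 were called higher in treated 1-month tumours, Angptl4 was called higher with trametinib or the combination in the first cell experiment, and Hilpda, Fabp5 and Lpl were called lower there.

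After 1 month of treatment the droplet coat gene Plin4 and the fuel switch gene Pdk4 rose in the tumours, and no lipid storage gene was called lower. All 10 genes passed the filter; 2 were called higher, where 10.1% of all 18762 genes tested were, and 0 lower, where 13.7% of all genes were. The median log2 change was 0.23 over the 10 genes and 0.04 over all genes. At an unadjusted p under 0.05 with limma, 2 of the genes were higher and 1 lower. Plin4, a perilipin that coats small new lipid droplets in fat cells, had 329, 313, 308 and 111 in combination tumours, against 39.6, 36.96 and 60.04 in vehicle tumours. Every treated tumour was above every vehicle tumour, and treated replicate 4 was far below the other treated tumours. Plin4 was 5.37-fold higher, a log2 change of 2.43 ± 0.44 (adjusted p = 0.00369). Pdk4, the kinase that shuts pyruvate dehydrogenase and so spares glucose, had 4568, 2671, 3362 and 1392 in combination tumours, against 922, 516 and 1165 in vehicle tumours. The groups did not overlap here either, and replicate 4 was again the lowest treated tumour. The change of Pdk4 was 1.74 ± 0.38 (adjusted p = 0.00925), or 3.34-fold.

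The other droplet genes were not called. Plin5, a perilipin that ties droplets to mitochondria, had 255, 217, 209 and 100.2 in combination tumours and 114, 189 and 56.4 in vehicle tumours, which overlapped (0.78 ± 0.45 (adjusted p = 0.237)). Plin2, the perilipin found on droplets of most cell types, had 14831, 17939.9, 19666 and 12519 in combination tumours and 16444, 11549.7 and 17707 in vehicle tumours, with a log2 change of 0.09 ± 0.20 (adjusted p = 0.77). Hilpda, a small droplet protein that inhibits the lipase ATGL, had 2572, 1668, 2329.7 and 2415 in combination tumours and 2203, 2737 and 1990.3 in vehicle tumours (-0.05 ± 0.32 (adjusted p = 0.934)). The groups overlapped for both of these genes. Angptl4, a secreted inhibitor of lipoprotein lipase, had 2652, 5579, 3443 and 1457 in combination tumours and 2291, 2023 and 2611 in vehicle tumours. Treated tumours lay both above and below all vehicle tumours, and the change was 0.35 ± 0.41 (adjusted p = 0.571).

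For the uptake and transport genes 1 vehicle library set much of the spread. Lpl, which frees fatty acids from lipoproteins, had 2026, 1525, 1658 and 1289 in combination tumours and 3364, 346 and 2872 in vehicle tumours, so vehicle replicate 2 lay below all treated tumours and the other vehicle tumours above them. The log2 change was 0.10 ± 0.64 (adjusted p = 0.927) with all libraries and -0.95 without vehicle replicate 2 (adjusted p = 0.00339), which turned the sign and gave a call. Cd36, a fatty acid translocase, had 2215, 1345, 722 and 695 in combination tumours and 4031, 889 and 3298 in vehicle tumours. Its change was -1.04 ± 0.53 (adjusted p = 0.186), and -1.72 without that library (adjusted p = 0.0115), which was called. Fabp4, the fatty acid carrier of fat cells and macrophages, had 3263, 1709, 2606 and 3107 in combination tumours and 2350.4, 332 and 2783 in vehicle tumours. Its change of 1.00 ± 0.62 (adjusted p = 0.269) became 0.02 without vehicle replicate 2 (adjusted p = 0.966). Fabp5, the epithelial fatty acid carrier, had 4222, 4427, 6328 and 6390.4 in combination tumours and 7109.9, 9120.3 and 8575 in vehicle tumours. All treated tumours were below all vehicle tumours, yet the change of -0.65 ± 0.23 (adjusted p = 0.0678) was not called. In the authors' deposited table of the 2 groups alone, which tests the same libraries with DESeq2, Fabp5 had a log2 fold change of -0.64 with an adjusted p of 0.0315. Without vehicle replicate 2, Plin4 and Pdk4 remained called, with log2 changes of 2.30 (adjusted p = 0.0072) and 1.41 (adjusted p = 0.0189).

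**Figure D2:**
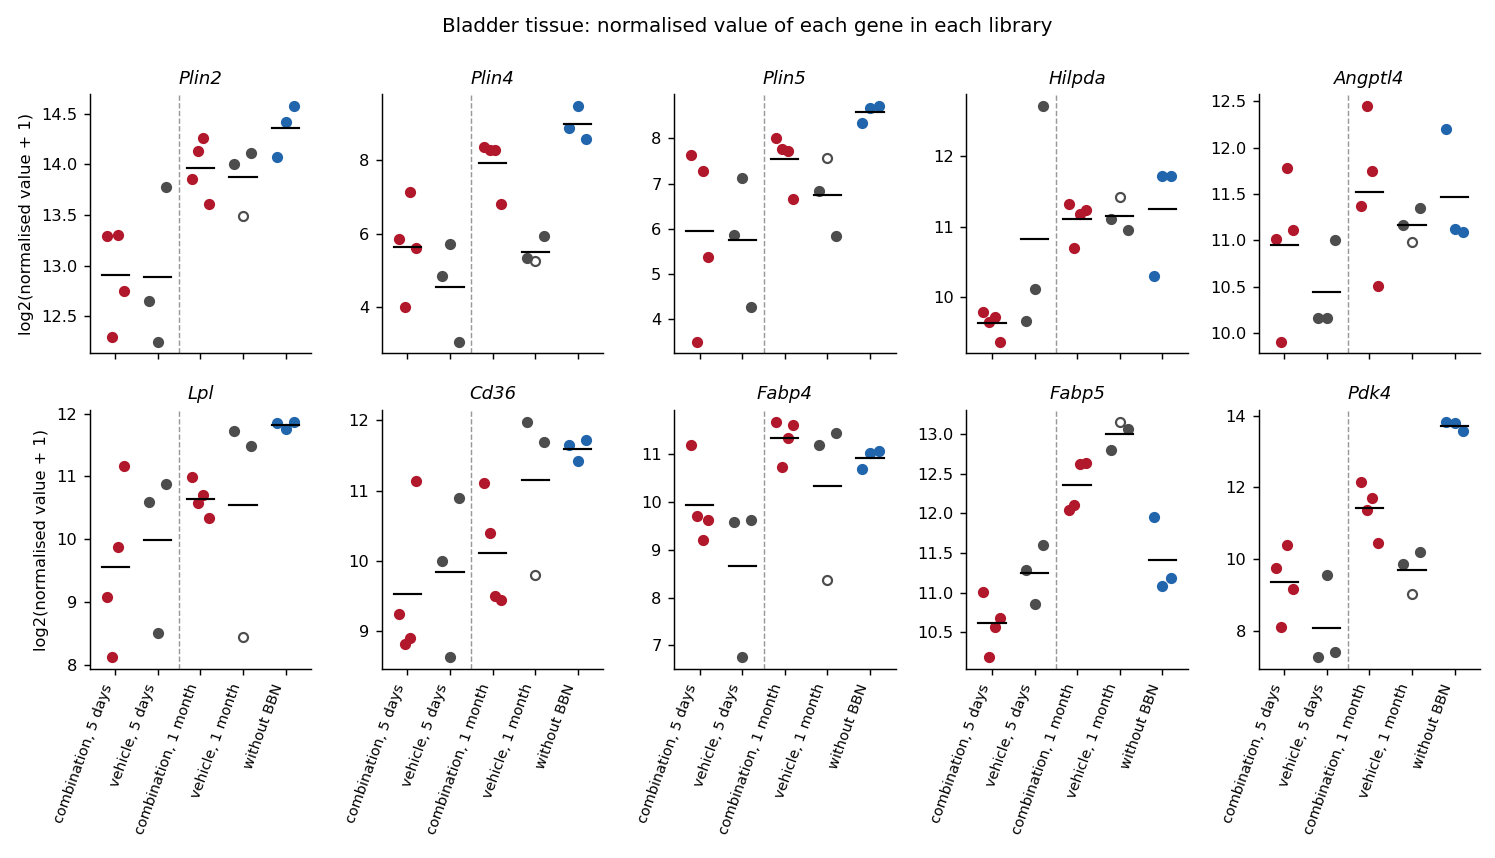
Each panel shows 1 lipid storage gene, with log2(normalised value + 1) on the y axis. From left to right are combination and vehicle tumours at 5 days, combination and vehicle tumours at 1 month, and bladder without BBN. The labels give no time for bladder without BBN, which was scaled with the 1-month tumours. Each point is a library, bars are group means, vehicle replicate 2 of the 1-month tumours is hollow, and the 5-day and 1-month tables were scaled separately. For Plin4 and Pdk4 the 1-month combination tumours lie between vehicle tumours and bladder without BBN.

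Markers of several cell types moved in the same tissue, and others overlapped between treated and vehicle tumours. Urothelium and basal epithelium markers summed to 512695 to 611789 in combination tumours and 397695 to 798389 in vehicle tumours. Smooth muscle markers summed to 3335 to 6958 in combination tumours and 3747 to 8717 in vehicle tumours. Skeletal muscle markers summed to 91.0 to 207 in combination tumours and 248 to 364 in vehicle tumours, without overlap. The summed value of 8 macrophage markers was 7555 to 21967 in combination tumours, 86336 to 140306 in vehicle tumours and 34339 to 43252 in bladder without BBN, and all 8 were called lower in combination than in vehicle tumours. The sum of 7 adipocyte markers was 70.03 to 80.1 in combination tumours, 165 to 239.9 in vehicle tumours and 146 to 215 in bladder without BBN, with Lep at 0 in all tumour libraries at 1 month. Of these 7 markers 4 averaged under 10 in combination tumours and 2 in vehicle tumours. The sum of 4 red blood cell markers was 36421 to 108967 in combination tumours, 365288 to 722637 in vehicle tumours and 67911 to 232000 in bladder without BBN, so treated and vehicle tumours did not overlap. Plin4 and Pdk4 were higher in the same combination tumours, and the part of macrophages, adipocytes and red blood cells in that was not tested. The sum of 8 endothelium markers was 5483 in vehicle replicate 2, against 13775 and 16224 in the other vehicle tumours and 13033 to 17640.3 in combination tumours, so it was low in the library where Lpl, Cd36 and Fabp4 were low. In bulk tissue fewer cells of a type and less RNA per cell cannot be told apart, and the part of macrophages, red blood cells, endothelium and fibroblasts in the values of the lipid storage genes was not tested.

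**Figure D3:**
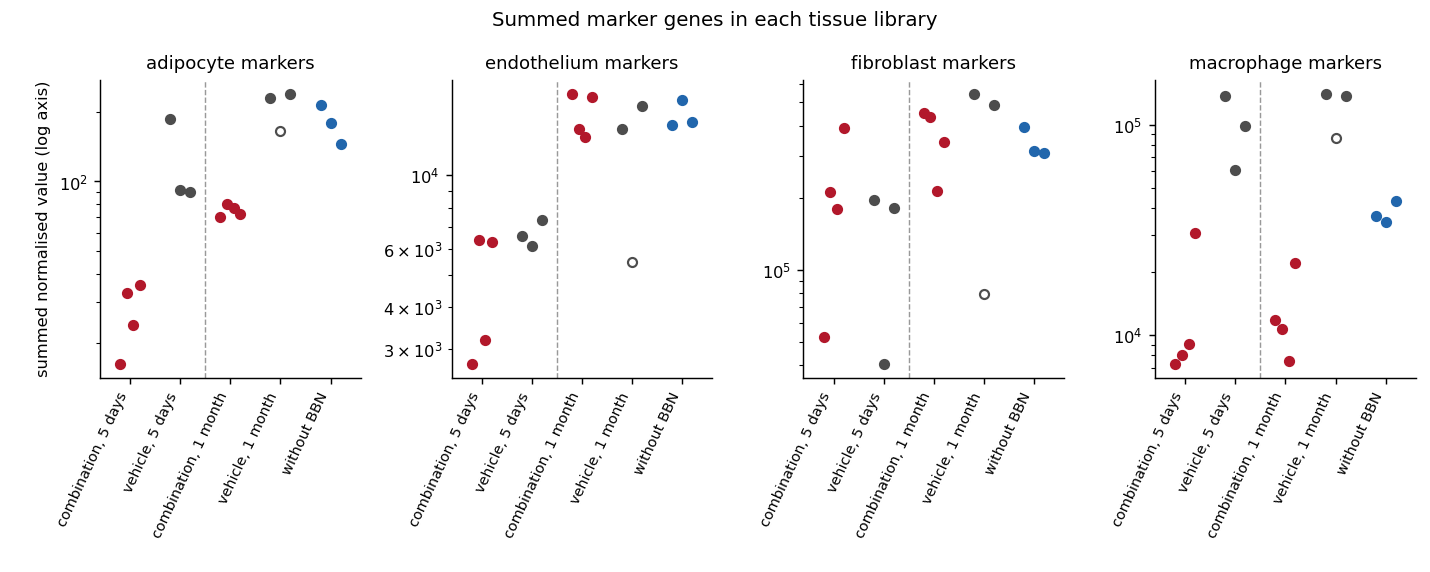
Summed normalised value of marker genes of adipocytes, endothelium, fibroblasts and macrophages in each tissue library, on a logarithmic y axis, in the same order of groups as for the lipid storage genes. Macrophage sums are 7555 to 21967 in 1-month combination tumours and 86336 to 140306 in 1-month vehicle tumours, and vehicle replicate 2 at 1 month has the lowest fibroblast and endothelium sums of that table.

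Vehicle tumours had less Pdk4, Plin4 and Plin5 and more Fabp5 than bladder without BBN. Of the 10 genes 3 were called lower, where 11.4% of all genes were, and 1 higher, where 15% were, with a median log2 change of -0.54 over the 10 genes and -0.02 over all genes. Pdk4 had 922, 516 and 1165 in vehicle tumours, against 14528, 14196 and 12159 in bladder without BBN, and fell by 4.05 ± 0.40 on the log2 scale (adjusted p = 0.00014). Plin4 had 39.6, 36.96 and 60.04 in vehicle tumours, against 470.3, 713 and 382 in bladder without BBN, and fell by 3.47 ± 0.47 (adjusted p = 0.000635). Plin5 had 114, 189 and 56.4 in vehicle tumours, against 325, 408 and 419 in bladder without BBN. Pdk4, Plin4 and Plin5 did not overlap between these groups of 3 libraries each, and how often this held among all genes is not given. The change of Plin5 was -1.83 ± 0.48 (adjusted p = 0.0189), a call that was lost without vehicle replicate 3 (adjusted p = 0.0542), bladder replicate 2 (0.0648) or bladder replicate 3 (0.0609). Fabp5 had 7109.9, 9120.3 and 8575 in vehicle tumours, against 3967, 2176 and 2328 in bladder without BBN, and every tumour was above every bladder. Its rise was 1.60 ± 0.25 (adjusted p = 0.00137), or 3.02-fold. Plin2 with -0.48 ± 0.21, Lpl with -1.28 ± 0.68, Fabp4 with -0.59 ± 0.66, Cd36 with -0.44 ± 0.57, Angptl4 with -0.31 ± 0.44 and Hilpda with -0.09 ± 0.35 were not called.

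In treated tumours after 1 month Pdk4 was still below bladder without BBN, with a log2 change of -2.30 ± 0.38 (adjusted p = 0.0122), and it was the only one of the 10 genes called in that comparison, where 1.44% of all genes were called lower and 2.57% higher. The call was lost without bladder replicate 2 (adjusted p = 0.0604) or replicate 3 (0.0544). Plin4 was -1.05 ± 0.44 and Plin5 -1.04 ± 0.45, neither called, and both were lower in every treated tumour than in every bladder without BBN. Fabp5 was 0.95 ± 0.23 (adjusted p = 0.0512), and all treated tumours were above all bladders without BBN. Lpl was -1.18 ± 0.64 (adjusted p = 0.371) and Cd36 -1.48 ± 0.53 (adjusted p = 0.165). Without vehicle replicate 2, which enters the shared estimate of spread, Lpl (adjusted p = 0.00257), Cd36 (0.0303) and Fabp5 (0.0328) were called in the directions given, whereas the log2 changes stayed at -1.18, -1.48 and 0.95. The 2 comparisons with vehicle and the 2 with bladder without BBN share libraries, so their values stand side by side here and were not correlated.

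The receptors themselves moved with Plin4 and Pdk4. Pparg had 6233, 5752, 7541 and 6003 in combination tumours, 4072, 1515 and 3754 in vehicle tumours and 10674, 12118 and 12632 in bladder without BBN, and Rxra had 14299, 15528, 14963 and 14029.6 in combination tumours, 4572, 6248 and 6909 in vehicle tumours and 20239, 19323 and 16707 in bladder without BBN. For both genes all treated tumours lay above all vehicle tumours. Rxra rose by 1.34 ± 0.14 against vehicle (adjusted p = 0.000278) and Pparg by 1.15 ± 0.29 (adjusted p = 0.0172), the second with vehicle replicate 2 as its lowest library. Without that library the change of Pparg was 0.70 (adjusted p = 0.004).

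At 5 days the lipid storage genes varied widely from tumour to tumour, and none was called. Of the 10 genes 0 were called higher, where 0.699% of all 16891 genes were, and 0 lower, where 5.48% were; at an unadjusted p under 0.05 with limma 0 were higher and 1, Fabp5, lower. The median log2 change was 0.11 over the 10 genes and 0.04 over all genes. Plin4 had 57.1, 14.9, 139.6 and 47.6 in combination tumours and 27.7, 51.6 and 7.32 in vehicle tumours (1.11 ± 0.89 (adjusted p = 0.524)). Pdk4 had 861, 273, 1348 and 570.2 in combination tumours and 152, 754 and 168 in vehicle tumours (1.28 ± 0.71 (adjusted p = 0.343)). For both genes vehicle replicate 2 was the highest vehicle tumour and overlapped the treated ones; without it the log2 change of Plin4 was 1.70 (adjusted p = 0.359) and that of Pdk4 2.02 (adjusted p = 0.111). Without vehicle replicate 3 the change of Plin4 was 0.37 (adjusted p = 0.885) and that of Pdk4 0.94 (adjusted p = 0.646). Plin5 had 199, 10.4, 155 and 40.8 in combination tumours and 57.2, 138 and 18.4 in vehicle tumours, with treated replicate 2 lowest of all. Angptl4 had 2064, 961, 3507 and 2209 in combination tumours and 1144, 1145 and 2051 in vehicle tumours (0.51 ± 0.43 (adjusted p = 0.548)). Treated replicate 2, with the lowest Angptl4, Plin4, Plin5 and Pdk4 among treated tumours, also had the lowest Pparg value of its group, at 788.

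Hilpda had 889, 800.5, 846 and 662 in combination tumours and 812, 1114 and 6717 in vehicle tumours, so 1 vehicle library held most of the difference, and the log2 change of -1.20 ± 0.66 (adjusted p = 0.341) was -0.26 without it (adjusted p = 0.632). The same library, vehicle replicate 3, had the highest Plin2, at 14016, against 10049, 5015, 10134 and 6893 in combination tumours and 6443 and 4873 in the other vehicle tumours. Fabp5 had 2064, 1159.8, 1517 and 1641 in combination tumours and 2489.9, 1855 and 3096 in vehicle tumours, with overlap, and was not called (-0.63 ± 0.24 (adjusted p = 0.179)). Fabp4 had 2330.1, 839, 587 and 788 in combination tumours and 763, 106 and 793 in vehicle tumours, with overlap. Cd36 had 606, 453, 479 and 2259.6 in combination tumours and 1025, 395 and 1915 in vehicle tumours (-0.32 ± 0.71 (adjusted p = 0.843)). Lpl had 542, 276, 933 and 2284 in combination tumours and 1546, 362 and 1872 in vehicle tumours (-0.43 ± 0.81 (adjusted p = 0.812)). Vehicle replicate 2, with the low fibroblast sum, was the lowest vehicle library for all 3 genes, and the change of Fabp4 was 0.33 without it (adjusted p = 0.777), against 1.28 ± 0.79 (adjusted p = 0.394) with all libraries. Macrophage marker sums were 7274 to 30566 in combination tumours and 60544 to 136779 in vehicle tumours. Adipocyte sums were 16.2 to 35.5 in combination tumours and 90.05 to 186 in vehicle tumours. Of the 7 adipocyte markers 6 averaged under 10 in combination tumours and 3 in vehicle tumours. Adipoq and Lep were not detected in any combination tumour. Urothelium and basal epithelium sums were 100730 to 265625 in combination tumours and 50168 to 123965 in vehicle tumours, with overlap. The part of these cells in the values of the lipid storage genes was not tested.

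The effect of treatment after 1 month minus that after 5 days was tested as an interaction. None of the 10 genes was called higher or lower, where 0.00534% of 18721 genes, a single gene, were called higher and 0% lower. With limma 0 of the 10 genes passed an unadjusted p under 0.05, and 2867 of all genes did. Plin4 differed by 1.32 ± 1.05 (adjusted p = 0.591) and Pdk4 by 0.46 ± 0.89 (adjusted p = 0.853). The calls of both genes at 1 month and not at 5 days therefore do not show that the effects differ.

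Other lipid genes gave a mixed picture in the 1-month tumours. Among 26 further PPAR targets 23 were measured, 11 were called higher in combination than in vehicle tumours and 0 lower, where 10.1% of all genes were called higher and 13.7% lower, which is also the background of the other 1-month lists with treatment. Among the 11 was Cpt1a (0.86), which lets fatty acids into mitochondria, and the median was 0.41 against 0.04 over all genes. In vehicle tumours against bladder without BBN 14 of the 23 were called lower and 1 higher, where 11.4% and 15% of all genes were, with Cpt1a at -1.43, the glycerol channel Aqp3 at -1.14 and Ucp2 at 1.52. Of 14 measured droplet and lipolysis genes 2 rose with treatment, Plin3 (0.56) and Fitm2 (0.63), and 2 fell, the lysosomal lipase Lipa (-1.11) and the ATGL inhibitor G0s2 (-5.97). G0s2 averaged 325 ± 388 in combination tumours (SD, n = 4) and 36398 ± 56351 in vehicle tumours (SD, n = 3), so its vehicle level differed greatly between libraries. Of 16 triglyceride synthesis genes Lpin3 (1.53) and Gpam (1.64) rose and Dgat1 (-1.25) fell. Of 13 uptake and activation genes 5 rose, including Acsl3 (0.70), and Acsl4 fell (-0.62). At 5 days, where 0.699% of all genes were called higher and 5.48% lower, no gene of the uptake list was called; of 13 droplet genes G0s2 (-7.19) and Lipe (-1.15) fell, of 15 synthesis genes 4 fell, with Gk at -2.73 and Dgat1 at -2.29, and of 21 PPAR targets Retsat alone rose (0.91).

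BBN963 cells given rosiglitazone alone had slightly higher values of Plin2, Angptl4 and Hilpda, none of them called. Of the 10 genes 7 passed the filter, and 0 were called, as were 0% of all 14218 genes tested; 940 of all genes passed an unadjusted p under 0.05 with limma, 4 of the 7 among them, all higher. Plin2 had 5538, 5619.8, 6339, 5984 and 5764 with rosiglitazone, against 4984, 5052, 5114, 5167 and 4883 with DMSO (0.21 ± 0.04 (adjusted p = 0.114)). Angptl4 had 423, 491, 453, 343 and 363 with rosiglitazone, against 253, 319.99, 320.2, 324 and 292 with DMSO (0.45 ± 0.11 (adjusted p = 0.27)). Hilpda had 1747, 1605, 2104, 1670.2 and 1599 with rosiglitazone, against 1382, 1424, 1322, 1521 and 1346 with DMSO (0.31 ± 0.07 (adjusted p = 0.257)). For Plin2, Angptl4 and Hilpda every rosiglitazone sample was above every DMSO sample, and how often this held among all genes is not given. In the authors' deposited table, a DESeq2 test of the same libraries, Plin2 had an adjusted p of 0.000923, Angptl4 of 0.0169 and Hilpda of 0.0190. Without DMSO replicate 4, 71 genes were called, Plin2 (adjusted p = 0.0289) and Hilpda (0.049) among them and Angptl4 not (0.0779).

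Lpl had 575, 589, 619.9, 577 and 597 with rosiglitazone and 556, 579, 547, 517 and 526.03 with DMSO (0.12 ± 0.05 (adjusted p = 0.742)), and Fabp5 6716, 6603, 7449, 6687 and 6710.4 with rosiglitazone and 7016, 6775, 6890.4, 8142 and 6866 with DMSO (-0.06 ± 0.05 (adjusted p = 0.94)). Both pairs of groups overlapped. Pdk4 was low in both groups, with 12.6 to 23.9 with rosiglitazone and 9.27 to 37.1 with DMSO, and so was Fabp4, with 4.01 to 20.2 with rosiglitazone and 6.49 to 20.6 with DMSO. Plin4, Cd36 and Plin5 had too few libraries at 10 or more to be tested, with at most 7.65, 11.03 and 3.101 with rosiglitazone. The receptor Pparg had 295, 307, 343, 289 and 231 with rosiglitazone and 309, 288, 372, 314 and 337 with DMSO and was not called.

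Trametinib alone raised Angptl4, Pdk4 and Cd36 and lowered Hilpda, Lpl and Fabp5. Of 8 genes that passed the filter 3 were called higher and 3 lower, where 35.8% and 35.3% of all 14414 genes were, so a call was common in this comparison; the median was -0.19 over the 8 genes and 0.01 over all genes. Angptl4 had 1122, 1086, 1137, 1178 and 1085 with trametinib, against 264, 332, 333, 344 and 304 with DMSO. This was a 3.56-fold rise in groups far apart (1.83 ± 0.07 (adjusted p = 2.52e-11)). Pdk4 had 62.7, 72.9, 64.4, 58.4 and 69.98 with trametinib, against 19.6, 22.01, 22.7, 10.8 and 42.3 with DMSO, again with no overlap (1.57 ± 0.27 (adjusted p = 0.000107)). Cd36 had 23.2, 11.1, 30.1, 24.3 and 30.4 with trametinib, against 7.51, 2.67, 4.03, 5.21 and 1.71 with DMSO. Its rise of 2.28 ± 0.37 (adjusted p = 6.06e-05) belongs to a gene that passed the filter only through the trametinib libraries, so it had to be higher there.

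Hilpda had 704, 707, 755, 654 and 709 with trametinib, against 1433, 1474, 1367, 1609 and 1396 with DMSO, and fell to 0.485 of the DMSO level (-1.04 ± 0.06 (adjusted p = 6.4e-10)). Lpl had 331, 328, 355, 285 and 310.4 with trametinib, against 561, 582, 549.6, 531 and 530.2 with DMSO (-0.78 ± 0.07 (adjusted p = 1.16e-07)). Fabp5 had 5318, 5553, 5578, 5194 and 5244 with trametinib, against 7227, 6962, 7078, 8551 and 7071 with DMSO (-0.45 ± 0.05 (adjusted p = 3.13e-06)). All trametinib samples were below all DMSO samples for Hilpda, Lpl and Fabp5. Plin2 had 5373, 5857, 5558, 5405 and 5647 with trametinib and 5211, 5269.5, 5333, 5509 and 5105 with DMSO, a log2 change of 0.07 ± 0.04 (adjusted p = 0.0868), and Fabp4, at 2.701 to 17.01 with trametinib and 6.47 to 20.5 with DMSO, was not called either (-0.65 ± 0.42 (adjusted p = 0.18)). Plin4 was at 5.83 to 12.6 with trametinib and 0.863 to 4.25 with DMSO, too few libraries above 10 to be tested; with no filter its change was 1.61 ± 0.37 (adjusted p = 0.00146), and the authors' deposited table gives an adjusted p of 0.00273. Pparg had 569, 544, 544, 617 and 549 with trametinib, against 315, 293, 378, 327 and 343 with DMSO, and rose by 0.77 ± 0.07 (adjusted p = 3.09e-07).

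With both drugs Angptl4 and Pdk4 rose, and Hilpda, Fabp5 and Lpl fell. Of the 6 genes that passed the filter 2 were called higher and 3 lower, where 36.3% and 36.2% of all 14220 genes were; the median was -0.40 over the 6 genes and 0.01 over all genes. Angptl4 had 2203, 2072, 2074, 2068 and 2134 with the combination, against 243, 306, 306, 317 and 281 with DMSO, a 7.28-fold rise (2.86 ± 0.07 (adjusted p = 3.94e-13)). Pdk4 had 53.98, 34.8, 38.9, 44.2 and 38.7 with the combination, against 17.5, 19.7, 20.3, 9.66 and 37.98 with DMSO (1.07 ± 0.28 (adjusted p = 0.00379)). The groups were apart for Angptl4 and overlapped for Pdk4 through DMSO replicate 5. Fabp5 had 3864, 3744, 3653, 3746 and 3949 with the combination, against 6672, 6424, 6532, 7906 and 6539.9 with DMSO (-0.84 ± 0.05 (adjusted p = 5.44e-09)). Hilpda had 646, 681, 602, 656 and 668 with the combination, against 1325, 1362, 1263, 1489.7 and 1293 with DMSO (-1.05 ± 0.06 (adjusted p = 7.76e-10)), and Lpl 318, 311, 293, 282 and 309.6 with the combination, against 523, 543, 513, 496 and 496 with DMSO (-0.76 ± 0.06 (adjusted p = 4.28e-08)). For Fabp5, Hilpda and Lpl the groups were apart. Plin2 had 4679, 4934, 4677, 4653 and 4846 with the combination and 4802, 4853, 4913, 5084 and 4713 with DMSO and was not called (-0.03 ± 0.03 (adjusted p = 0.381)). The 4 genes that did not pass the filter were Plin4, with 13.3, 12.5, 5.11, 15.2 and 19.3 with the combination and 0.796, 2.91, 3.92, 1.901 and 2.803 with DMSO, Cd36, Fabp4 and Plin5. Cd36 was at 9.79 to 20.3 with the combination and 1.705 to 7.49 with DMSO, Fabp4 at 4.35 to 7.32 with the combination and 6.28 to 19.9 with DMSO, and Plin5 at 0 to 3.79 with the combination and 0 to 8.74 with DMSO. With no filter Plin4 was called higher (1.998 ± 0.39 (adjusted p = 0.000419)), Cd36 higher (1.54 ± 0.36 (adjusted p = 0.00182)) and Fabp4 lower (-1.25 ± 0.33 (adjusted p = 0.0049)), and Plin5 was not called (-0.56 ± 0.58 (adjusted p = 0.497)). In the authors' deposited table the adjusted p was 0.000102 for Plin4, 0.00226 for Cd36 and 0.0038 for Fabp4, in the same directions. Rxra was at 2187 to 2495 with the combination and 1725 to 1963 with DMSO. With trametinib Rxra was at 2319 to 2641, against 1892 to 2157 with DMSO. With rosiglitazone Rxra was at 1754 to 2222, against 1745 to 2033 with DMSO, which overlapped. The 3 comparisons with DMSO share their DMSO libraries.

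**Figure D4:**
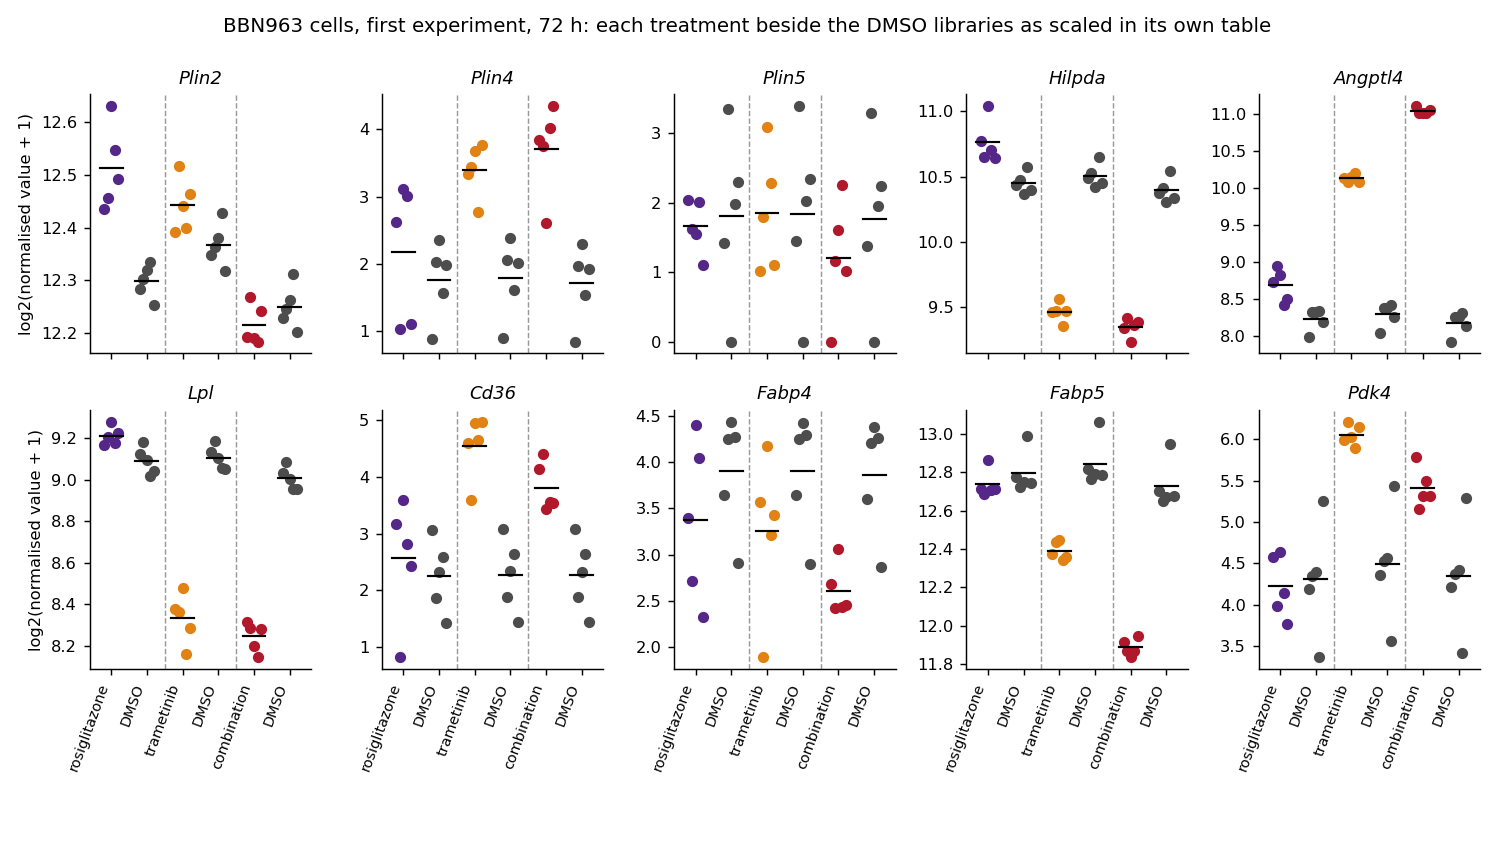
Each panel shows 1 lipid storage gene in the first cell experiment, with log2(normalised value + 1) on the y axis and the pairs rosiglitazone and DMSO, trametinib and DMSO, and combination and DMSO from left to right, each pair scaled in its own table. Points are the 5 samples of a group and bars are means. Angptl4 lies at 343 to 491 with rosiglitazone, 1085 to 1178 with trametinib and 2068 to 2203 with the combination.

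The 3 tables were joined through the DMSO libraries they share, so that treated groups could be compared with each other and the interaction of the drugs tested; in that join 9 genes passed the filter. Adding rosiglitazone to trametinib raised Angptl4 further, by 1.03 ± 0.08 (adjusted p = 2.43e-08), and lowered Fabp5, with -0.39 ± 0.05 (adjusted p = 1.07e-05). No other of the 9 genes was called, so that 1 was higher and 1 lower, where 3.06% and 4.04% of all 14951 genes were. Hilpda (-0.00 ± 0.06) and Lpl (0.01 ± 0.06) differed by less than their errors between combination and trametinib. Plin2 (-0.11 ± 0.04 (adjusted p = 0.0712)), Cd36 (-0.74 ± 0.43 (adjusted p = 0.352)) and Pdk4 (-0.49 ± 0.25 (adjusted p = 0.267)) were not called. Adding trametinib to rosiglitazone changed 8 of the 9 genes, 4 higher and 4 lower, where 36.2% and 36.6% of all genes were called. Angptl4 (2.41 ± 0.08), Plin4 (1.58 ± 0.44), Cd36 (1.24 ± 0.43) and Pdk4 (1.16 ± 0.25) rose, and Hilpda (-1.36 ± 0.06), Lpl (-0.88 ± 0.06), Fabp5 (-0.78 ± 0.05) and Plin2 (-0.25 ± 0.04) fell. Plin4 and Cd36 passed the filter in this join only through libraries with trametinib, so they had to be higher there. The call of Cd36 was lost without rosiglitazone replicate 2 (0.80, adjusted p = 0.058).

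The interaction, the effect of both drugs minus the sum of the single effects on the log2 scale, was called for 3 of 9 genes, 1 positive and 2 negative, where 0.756% and 1.1% of all genes were. For Angptl4 it was 0.58 ± 0.11 (adjusted p = 0.00791): the combination gave 2.86, trametinib 1.83 and rosiglitazone 0.45. For Plin2 it was -0.32 ± 0.05 (adjusted p = 0.00153), where the combination gave -0.03, trametinib 0.07 and rosiglitazone 0.21. For Fabp5 it was -0.33 ± 0.07 (adjusted p = 0.00927), where the combination gave -0.84, trametinib -0.45 and rosiglitazone -0.06. The combination thus lay above the sum of the single changes for Angptl4 and below it for Plin2 and Fabp5. Hilpda (-0.32 ± 0.09 (adjusted p = 0.0774)) was not called.

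Across the 20 joined libraries of the first cell experiment the genes most like Angptl4, among 11418 compared, were Fads3 (Pearson r = 0.987), Fkbp9 (0.984) and Sdcbp2 (0.984). The genes most like Pdk4 were Hyal1 (0.923), Tent5a (0.922) and Il6ra (0.914), and the most like Plin2 were Rps12l1 (0.810), Paip2 (0.737) and Coq3 (0.737). These libraries share treatments, so groups of 5 carry most of each r, and the values describe likeness of pattern only.

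In the second cell experiment the combination lowered Fabp5, Hilpda and Plin2 at 24 h and those 3 genes and Lpl at 72 h. Of 7 genes that passed the filter 3 were called lower at 24 h, where 27.2% of all 14014 genes were, and 0 higher, where 27.7% were, with the same counts by edgeR and DESeq2 and 0 higher at an unadjusted p under 0.05 with limma. At 72 h 4 were called lower and 0 higher, where 35.1% and 34.4% of all genes were, again with the same counts by edgeR and DESeq2 and 0 higher at an unadjusted p under 0.05 with limma; the median was -0.89 over the 7 genes and -0.02 over all genes. At 24 h Fabp5 had 349.99, 252, 269 and 284 with the combination, 238 at the lowest, 459 at the median and 601 at the highest of 6 samples with ATRA, and 746, 850.1 and 773 with DMSO. At 72 h Fabp5 had 115, 89.04, 59.02 and 66.2 with the combination, 197, 925, 1082, 1017 and 1030.3 with ATRA and 1329, 1340.2 and 1056 with DMSO. The combination samples were below all DMSO samples at both times, and ATRA replicate 1 at 72 h was far below the other ATRA samples. The change with the combination was -1.46 ± 0.43 (adjusted p = 0.0066) at 24 h and -3.94 ± 0.43 (adjusted p = 5.33e-08) at 72 h, when the level was 0.0652 of that with DMSO. The 72 h change minus the 24 h change was -2.48 ± 0.60 (adjusted p = 0.00517). In the authors' deposited table, which pools both times, Fabp5 had a log2 fold change of -2.57 for the combination against DMSO without an adjusted p.

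Hilpda at 24 h had 96.2, 78.5, 72.01 and 91.8 with the combination, 191 at the lowest, 218 at the median and 279.7 at the highest with ATRA, and 195, 179.5 and 147 with DMSO. At 72 h it had 106, 98.9, 84.9 and 85.1 with the combination, 261, 500.1, 539, 552 and 586 with ATRA and 293, 292 and 241 with DMSO. The combination was below both other groups at both times, and 4 of 5 ATRA samples were above all DMSO samples at 72 h. The combination gave -1.03 ± 0.20 (adjusted p = 9.78e-05) at 24 h and -1.54 ± 0.20 (adjusted p = 1.5e-07) at 72 h. Plin2 at 24 h had 824, 698, 771 and 726 with the combination, 722 at the lowest, 839.7 at the median and 1115 at the highest with ATRA, and 1048, 1016 and 953 with DMSO. At 72 h Plin2 had 684, 611, 564 and 665 with the combination, 1096, 1079.7, 1079, 1163 and 1187 with ATRA and 1225, 1237 and 1058 with DMSO. Combination samples were below all DMSO samples at both times, with changes of -0.42 ± 0.10 (adjusted p = 0.00133) at 24 h and -0.89 ± 0.10 (adjusted p = 2.67e-08) at 72 h. Lpl had 42.5, 31.9, 43.6 and 36.1 with the combination and 55.3, 39.6 and 50.4 with DMSO at 24 h, which overlapped (-0.32 ± 0.20 (adjusted p = 0.18)). At 72 h Lpl had 17.3, 17.6, 25.9 and 29.9 with the combination and 54.8, 54.04 and 50.3 with DMSO, which did not (-1.23 ± 0.20 (adjusted p = 6.51e-06)). The fall was larger at 72 h than at 24 h for Plin2 (-0.48 ± 0.14 (adjusted p = 0.0178)) and Lpl (-0.91 ± 0.28 (adjusted p = 0.0216)), so 3 genes with Fabp5 were called lower in that difference, where 12.7% of all genes were. The Lpl call was lost with quantile normalisation (adjusted p = 0.0578) and without DMSO replicate 2 at 24 h (0.0687), and the Plin2 call without DMSO replicate 2 at 72 h (0.0512).

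Angptl4 at 24 h had 189, 144, 169 and 154 with the combination, 141 at the lowest, 147 at the median and 998 at the highest with ATRA, and 118, 137 and 103 with DMSO. At 72 h it had 251, 198, 163 and 156 with the combination, 906, 244, 293, 281 and 299.97 with ATRA and 254, 249 and 211 with DMSO. The highest ATRA sample at each time was the library that stood apart from its group, and both widened the spread that all groups share. The change with the combination was 0.46 ± 0.52 (adjusted p = 0.476) at 24 h and -0.33 ± 0.52 (adjusted p = 0.586) at 72 h, neither called. Without both of those ATRA libraries the same log2 changes were called, higher at 24 h (adjusted p = 0.00327) and lower at 72 h (adjusted p = 0.024), and their difference of -0.79 was called too (adjusted p = 0.00117), as was that of Hilpda (-0.51, adjusted p = 0.0139). Pdk4 stayed low, at 6.604 to 13.1 with the combination and 7.96 to 10.6 with DMSO at 24 h and at 3.298 to 8.35 with the combination and 4.94 to 9.67 with DMSO at 72 h, and was not called (-0.03 ± 0.44 at 24 h and -0.26 ± 0.44 at 72 h). Plin4 was at 10.9 to 17.96 with the combination and 7.92 to 10.8 with DMSO at 24 h, and at 3.15 to 10.99 with the combination and 4.701 to 7.55 with DMSO at 72 h, and was not called either. Fabp4, Cd36 and Plin5 were below the minimum in all groups, the highest values being 4.61, 1.64 and 6.83, and were not tested with the filter. Fabp4 at 24 h had 0.943, 0.665, 1.09 and 0 with the combination and 4.61, 2.64 and 3.54 with DMSO, and at 72 h 0, 1.099, 0 and 0 with the combination and 3.92, 4.07 and 1.93 with DMSO, with no overlap at either time. With no filter it was called lower with the combination than with DMSO at 24 h (-1.49 ± 0.49 (adjusted p = 0.0226)) and at 72 h (-1.80 ± 0.49 (adjusted p = 0.00393)), and lower than with ATRA at 72 h (-1.27 ± 0.43 (adjusted p = 0.0213)). In the authors' deposited table, which pools both times, Fabp4 had a log2 fold change of -2.63 for the combination against DMSO with an adjusted p of 0.00191. Fabp4 was counted with 0 to 14 reads per library. For Cd36 and Plin5 no difference between combination, ATRA and DMSO was detectable at this depth.

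**Figure D5:**
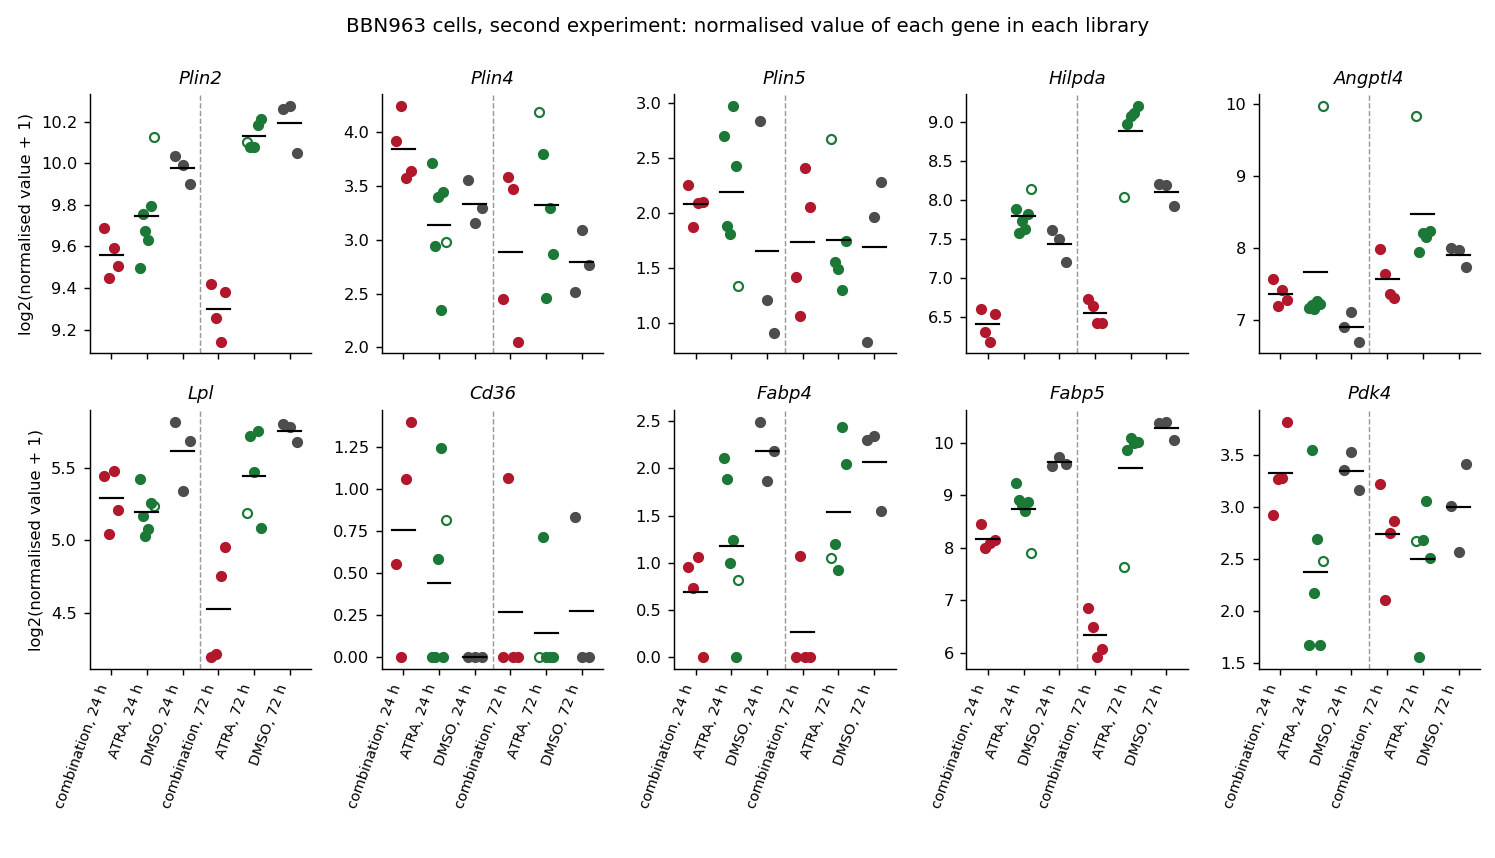
Each panel shows 1 lipid storage gene in the second cell experiment, with log2(normalised value + 1) on the y axis and combination, ATRA and DMSO from left to right at 24 h and then at 72 h. Points are samples, bars are means, and the 2 ATRA libraries that stood apart are hollow. Fabp5 lies at 59.02 to 115 with the combination and 1056 to 1340.2 with DMSO at 72 h.

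ATRA acts on the retinoic acid receptors, which also pair with RXRA. At 24 h 0 of 7 genes were called by limma, edgeR or DESeq2, although 4 were lower at an unadjusted p under 0.05 with limma, where 12.5% of all genes were called higher and 12.9% lower. Without both ATRA libraries that stood apart, Hilpda was called higher at 24 h (0.29, adjusted p = 0.0446) and Fabp5 (-0.72, 0.00207) and Plin2 (-0.30, 0.00218) lower. At 72 h Hilpda was called higher, with 0.77 ± 0.19 (adjusted p = 0.00566), and 0 lower, where 9.58% and 7.15% of all genes were. The Hilpda call at 72 h was lost with only the compared groups in the fit (adjusted p = 0.0994). Set directly against ATRA, the combination had lower Hilpda at 24 h (-1.39 ± 0.17 (adjusted p = 3.79e-07)) and higher Pdk4 (0.95 ± 0.37 (adjusted p = 0.0406)), where 21.6% of all genes were called lower and 21.1% higher. The Pdk4 call was lost with no filter (adjusted p = 0.0608), with edgeR (0.0568) and with DESeq2 (0.0839), and without any 1 of 5 libraries of the 2 groups (ATRA replicates 1, 3 and 5, combination replicates 2 and 3). At 72 h the combination was below ATRA for Fabp5 (-3.18 ± 0.37), Hilpda (-2.32 ± 0.17), Lpl (-0.92 ± 0.18) and Plin2 (-0.83 ± 0.09), 4 of 7 genes, where 34% of all genes were called lower and 33.4% higher. In DMSO alone Hilpda was higher at 72 h than at 24 h (0.66 ± 0.21 (adjusted p = 0.0358)), the only one of the 7 called, where 5.57% of all genes were called higher and 8.01% lower. That call was lost with no filter (adjusted p = 0.0565) and without any 1 of 5 of the 6 DMSO libraries (0.0539 to 0.147). Without both ATRA libraries Angptl4 (0.99), Fabp5 (0.65) and Plin2 (0.22) were called higher at 72 h as well.

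The receptor Pparg also went different ways in the second cell experiment. At 72 h it had 88.5, 59.4, 70.5 and 81.95 with the combination, 163, 119, 144, 138 and 131 with ATRA and 57.98, 79.6 and 72.5 with DMSO, and every ATRA sample was above all others. ATRA raised Pparg by 0.96 ± 0.14 at 24 h (adjusted p = 1.46e-05) and by 0.98 ± 0.14 at 72 h (adjusted p = 1.75e-05). With the combination Pparg was called lower at 24 h (-0.39 ± 0.15 (adjusted p = 0.0256)), at 70.8, 57.2, 62.2 and 75.4 against 105, 84.5 and 74.3 with DMSO. Combination and DMSO samples overlapped at 24 h and also at 72 h. In the first cell experiment, at 72 h, Pparg was instead higher with the combination, at 423 to 487 against 263 to 339 with DMSO.

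The 72 h effect of the combination differed between the cell experiments for Angptl4, Fabp5, Plin2 and Hilpda, with weaker calls for other genes. This comparison was added after the values were seen, and experiment and sequencing depth cannot be told apart in it. Of 9 genes tested 8 were called higher in the first than in the second experiment and 0 lower, where 24.3% and 22.7% of 15038 genes were. Angptl4 was 2.86 in the first and -0.33 in the second experiment, a difference of 3.19 ± 0.16 (adjusted p = 5.84e-12). Fabp5 was -0.84 in the first and -3.94 in the second, a difference of 3.10 ± 0.20 (adjusted p = 1.14e-09). Plin2 was -0.03 in the first and -0.89 in the second, a difference of 0.86 ± 0.08 (adjusted p = 5.18e-08). Hilpda was -1.05 in the first and -1.54 in the second, a difference of 0.50 ± 0.12 (adjusted p = 0.00154). Pdk4 (1.33 ± 0.46 (adjusted p = 0.0235)), Plin4 (1.90 ± 0.60 (adjusted p = 0.0136)), Cd36 (1.56 ± 0.61 (adjusted p = 0.041)) and Lpl (0.46 ± 0.19 (adjusted p = 0.0487)) differed as well, the first 3 of them being low in the second experiment. The call of Lpl was lost with a pseudocount of 4 (adjusted p = 0.0845), with no filter (0.0776) and without any 1 of 15 of the 17 libraries. That of Cd36 was lost with quantile normalisation (0.148), a pseudocount of 0.5 (0.0836), no filter (0.0503) and without any 1 of 9 libraries. That of Pdk4 was lost with quantile normalisation (0.0545) and without second-experiment DMSO replicate 3 (0.0752) or combination replicate 2 (0.0534). With 1 library left out 6 to 7 genes were called higher. Plin4 and Cd36 passed the filter only through the first experiment's libraries with trametinib, so the count of 8 is given without weight. Hilpda and Fabp5 fell with the combination in both experiments, and Lpl did so at 72 h in both.

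Other lipid genes in the cells moved in both directions. With trametinib 12 of 19 measured PPAR targets were called higher and 5 lower, where 35.8% and 35.3% of all genes were. With the combination 11 were called higher and 4 lower, where 36.3% and 36.2% of all genes were. Cpt1a was 1.53 with trametinib and 1.89 with the combination, and catalase, Cat, 0.79 with trametinib and 0.92 with the combination. The thioredoxin inhibitor Txnip fell, with -2.80 for trametinib and -2.49 for the combination. Of 10 droplet and lipolysis genes 7 rose and 2 fell with either treatment, among them Lipa (1.89 with trametinib, 1.70 with the combination) and Plin3 (1.07 with trametinib, 1.06 with the combination). Adding rosiglitazone to trametinib raised 4 of 20 PPAR targets and lowered 0, where 3.06% and 4.04% of all genes were called, among them Cpt1a (0.36). With rosiglitazone alone 0 genes of any list were called, as of all genes. In the second experiment at 72 h 11 of 19 PPAR targets rose and 3 fell with the combination, where 34.4% and 35.1% of all genes did, with Cpt1a at 2.13, Cat at 1.35 and Ucp2 at -2.35, and 6 of 9 droplet genes rose, including Rab18 (0.80) and the ATGL activator Abhd5 (0.70).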

How the data were processed

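RNA of bladder tissue and BBN963 cells was isolated with miRNeasy micro kits, enriched for poly-A and sequenced as TruSeq libraries, per the labels' protocols. The deposited signal tables hold estimated reads per gene divided by the authors' DESeq2 normalisation factors, per the file headers. The deposited log2 fold changes and adjusted p-values beside them are DESeq2 output, per the file headers, and are printed only where named as the authors' deposited table. Per the submitters' processing notes, the tools were bcl2fastq 2.19, kallisto 0.44.0 and DESeq2, with mm10 and GRCm38.p6 named as builds; settings and annotation are not given in the sources used here. In the deposited comparison of rosiglitazone with DMSO, 1655 entries stood beside the wrong gene; 1537 were realigned through the deposited mean and 118 left out, none a lipid storage gene. In the deposited values of 1-month tumours with bladder without BBN, 126 entries had a library mean that differed from the deposited mean. These were used as they stood, and the lipid storage genes had matching means. For trametinib and for the combination, 26 entries named by dates were left out. No table had columns of other samples.

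Values were tested as log2(value + 1) with limma 3.58.1 (trend and robust) in R 4.3.3. Genes were tested if the number of libraries with a value of 10 or more was at least the size of the smallest group, p-values were adjusted by Benjamini and Hochberg over all genes tested, and calls were made at 0.05. Each table was fitted with all its groups. The fit was tested on simulated data. In the first cell experiment the tables were joined per gene through their shared DMSO libraries for comparisons between treated groups. For tissue and the first cell experiment depth was estimated by taking the densest point of the low values as 1 read. For the second cell experiment the smallest positive value of a library was taken as 1 read. There 100% of values equalled whole reads within 0.1, and edgeR 4.0.16 and DESeq2 1.42.0 were run on those reads. The fits were repeated with pseudocounts of 0.5 and 4, with quantile normalisation, without a filter, with only the compared groups, on the deposited table of only the 2 groups of 1-month tumours, and with every library left out once; leaving out both ATRA libraries that stood apart was added after the data were seen. The lipid storage genes, the other gene lists and the tests were chosen with earlier results of these data known. All 10 genes are named in every comparison; Pparg and Rxra are named as the receptors; from each other list up to 2 genes called in each direction with the lowest adjusted p are named, some of which are not reported here; and for Angptl4, Plin2 and Pdk4 the 3 genes with the highest r among those with a mean of at least 50. Promoter sequences come from RefSeq.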

Additional observations from a re-analysis of the deposited data

Results flagged for a closer look

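Within groups of 4 to 10 samples, 8 of 75 sets of values had 1 sample far from the others by a gap test that chance passes in about 1 set in 20. In 1-month combination tumours Plin4 was 110.5 in replicate 4. In the first cell experiment Fabp5 was 7449 in rosiglitazone replicate 3 and 7906 in DMSO replicate 4, and Cd36 was 11.1 in trametinib replicate 2. In the second cell experiment Angptl4 was 998 in ATRA replicate 6 at 24 h, and in ATRA replicate 1 at 72 h Angptl4 was 906, Hilpda 261 and Fabp5 197. The last 4 of these values lie in the 2 ATRA libraries that stood apart from their groups across all genes.

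Effects that differed between conditions by a limma test of the difference were of 3 kinds. The interaction of rosiglitazone and trametinib was 0.58 for Angptl4, -0.33 for Fabp5 and -0.32 for Plin2. The effect of the combination at 72 h minus that at 24 h was -2.48 for Fabp5, -0.91 for Lpl and -0.48 for Plin2. The 72 h effect of the combination in the first minus the second cell experiment was 3.19 for Angptl4, 3.10 for Fabp5, 1.90 for Plin4, 1.56 for Cd36, 1.33 for Pdk4, 0.86 for Plin2, 0.50 for Hilpda and 0.46 for Lpl.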

How the results depend on the processing

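No paired analysis was possible because the labels carry no replicate numbers. Of 911 log2 changes of the lipid storage genes under settings other than 1 library left out, 11 had the other sign and 42 changed call; of 2797 with 1 library left out, 74 had the other sign and 66 changed call. In 1 case the sign turned and a call was made: Lpl in combination against vehicle tumours at 1 month was -0.95 without vehicle replicate 2, the lowest value of its range with 1 library left out, of which 0.68 without vehicle replicate 1 was the highest. Counts that moved by over 1.5 times follow, with the cause not tested unless the setting itself gives it (fewer genes or samples in the fit).

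With quantile normalisation 2 lipid storage genes were lower in combination than in trametinib cells, 1 was higher in combination tumours than in bladder without BBN, and 26 genes of all differed between 1 month and 5 days. With a pseudocount of 4, 1 lipid storage gene was higher in combination tumours than in bladder without BBN and 4 genes differed between the times. With no filter 5 genes of all were called with rosiglitazone and 2 between the times; 4 lipid storage genes were higher with the combination in the first cell experiment, and 0 in combination against ATRA at 24 h and in DMSO between the times. With only the compared groups in the fit, combination against trametinib had 2029 genes called, 3 lipid storage genes lower among them. Combination tumours against bladder without BBN had 1407, with 1 lipid storage gene higher and 3 lower. ATRA at 72 h had 731, with 0 lipid storage genes higher, and DMSO between the times 3229, with 3 higher. In that setting 1 lipid storage gene was higher with the combination at 24 h, 1 higher and 1 lower with ATRA at 24 h, 0 higher in combination against ATRA at 24 h, and 5 lower in the 72 h minus 24 h difference. In the table of 2 groups 1 lipid storage gene, Fabp5, was lower in 1-month combination than in vehicle tumours. Without both deviating ATRA libraries 1 lipid storage gene was higher with the combination at 24 h, 1 higher and 2 lower with ATRA at 24 h, 2 lower in combination against ATRA at 24 h, 5 lower in the 72 h minus 24 h difference and 4 higher in DMSO between the times, where 3867 genes were called. With edgeR and DESeq2 0 lipid storage genes were higher in combination against ATRA at 24 h.

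With 1 library left out in turn, all genes called ranged from 3078 to 4737 for 1-month combination against vehicle tumours (lipid storage genes lower 0 to 2), from 3217 to 5191 for vehicle tumours against bladder without BBN, from 136 to 1583 for combination tumours against bladder without BBN (0 to 1 higher, 0 to 3 lower), from 0 to 126 between the tumour times, from 428 to 1001 at 5 days and from 0 to 71 for rosiglitazone (0 to 2 higher). They ranged from 737 to 1759 for combination against trametinib (1 to 2 lower), from 178 to 1210 for the interaction, from 2129 to 4943 for ATRA at 24 h (0 to 1 higher, 0 to 1 lower), from 1326 to 2583 for ATRA at 72 h and from 924 to 3391 for DMSO between the times (0 to 2 higher). Lipid storage genes higher ranged from 2 to 4 for the combination in the first cell experiment, and in combination against ATRA at 24 h from 0 to 1 higher and 1 to 2 lower. In the second cell experiment depth limits what can be seen of Cd36 and Plin5, and in tissue the spread between tumours does.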

Other observations

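Hypoxia genes, which share an inducer with Hilpda and Angptl4, were measured in full in all tables. With trametinib 11 of 15 were called lower and 2 higher, where 35.3% and 35.8% of all genes were, with a median log2 change of -0.99 against 0.01 over all genes, including Egln3 (-2.50), an oxygen sensor of the pathway, and Ldha (-1.05), which makes lactate. With the combination 11 of 15 were lower and 1 higher in the first cell experiment, where 36.2% and 36.3% of all genes were, with Egln3 at -2.57 and Ldha at -1.16, and 10 lower and 1 higher at 72 h in the second, where 35.1% and 34.4% of all genes were, with the glucose transporter Slc2a1 at -1.41 and Vegfa at -1.52. Of the same 15 genes 1 was lower in combination than in vehicle tumours at 1 month, Pfkfb4 (-1.78), where 13.7% of all genes were. At 5 days 3 were lower, where 5.48% of all genes were, with Pfkfb4 at -3.05 and Pfkfb3 at -2.54. Hilpda fell with trametinib or the combination in cells, while Angptl4 rose in the first cell experiment.

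Paralogues of the lipid storage genes gave a further comparison. In combination tumours at 1 month 3 of 17 measured paralogues rose against vehicle tumours and 0 fell, where 10.1% of all genes were called higher and 13.7% lower, among them Pdk1 (1.04) and Pdk2 (1.25), kinases of the same family as Pdk4. In vehicle tumours against bladder without BBN Pdk1 (-1.31) and Pdk2 (-1.54) were lower, as Pdk4 was, and Fabp6, a bile acid carrier, was higher (4.01). With the combination at 72 h in the second cell experiment Pdk2 rose (2.77) and the endothelial lipase Lipg fell (-4.46), which is of the same family as Lpl.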
